A study of Homo sapiens with 4 samples.

Results

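The genes examined were 46 subunits of ATP-dependent chromatin remodelling complexes other than INO80. Each was taken from a list of SWI/SNF, ISWI, CHD, SRCAP and TIP60 genes, and its probes were found through the RefSeq accession that the array design gives. Of the 46 genes, 45 had a probe matched in this way, and together they had 75 of the 41000 probes and were 45 of 18203 genes that could be named. For MBD3 of the NuRD complex, none of the accessions that the reference table lists is in the array design. An older, replaced accession of MBD3 does occur in the array files and was missed by the matching. MBD3 is therefore not analysed here, and its absence does not mean that the array lacks a probe for it. SWI/SNF had 15 genes, ISWI 6, the CHD proteins and NuRD 12, and SRCAP and TIP60 11, and the remaining 2 were ATRX and HELLS. There were 25 genes with 1 probe and 20 with several, at most 4.

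Total RNA came from Nalm-6, a human pre-B leukemia cell line, and was hybridized to 4 one-colour arrays, 1 for each group. WT cells carried the wild-type genes. In Arp5 KO cells, an established line, both alleles of the gene for actin-related protein 5 had been disrupted by gene targeting. The study describes Arp8 KO cells as lacking actin-related protein 8. It took this line from earlier work, in which it says that conditional knockout was lethal to cells. Both proteins belong to the INO80 remodeller. The fourth group was labelled as overexpressing Arp8, and its array is called the OE array. By their titles and the treatment protocol, all cultures received heme, an inducer of oxidative stress, at 20 uM for 12 hours. The treatment label gives no heme for both knockouts, and the source label gives none for Arp5 KO alone. Genotype and heme therefore cannot be told apart in the comparisons of the knockouts with WT, with the OE array or with each other. With no replicate arrays, no test was possible, and genotype, culture and array cannot be told apart either.

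Chromatin remodellers use the energy of ATP to slide, evict or exchange nucleosomes. Each complex is built around 1 ATPase of the SNF2 family, and its other subunits read histone marks, bind DNA or hold the complex together. SWI/SNF mainly opens chromatin at promoters and enhancers, ISWI spaces nucleosomes, NuRD joins remodelling with histone deacetylation, and SRCAP and TIP60 place the variant histone H2A.Z. Several subunits are used by more than 1 complex: ACTL6A, RUVBL1 and RUVBL2 also belong to INO80.

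Levels below are log2 of the processed spot signal over the array's 75th percentile, so that 0 is the 75th percentile of that array. Levels of different probes cannot be compared, and each difference is between arrays for 1 probe. The technical SD of such a difference was 0.082, and 2 SDs were 0.16. It came from the median SD between spots of those of the 264 probes printed more than once that were well above background. It was applied to probes printed once and to dim probes as well. This SD covers spots within arrays and no difference between cultures. Of the 75 probes, 74 were well above background on all 4 arrays and 1 on none, which left 44 genes measured. No spot of these genes was saturated or marked as an outlier.

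The labels were checked with the targeted genes. ACTR5, the gene of Arp5, had a level of -4.40 in Arp5 KO, against -0.13 in WT, -0.24 in Arp8 KO and -0.41 on the OE array. ACTR8, the gene of Arp8, was measured by 2 probes, whose log2 differences from WT were -0.53 and -0.68 in Arp8 KO. Both were under 2-fold, so they do not by themselves show that the protein is absent. On the OE array the ACTR8 differences were 0.02 and -0.01. These probes do not show the overexpression, and with no probe sequences given they do not exclude it. The label therefore serves only as a name for this array. All 10 precursor B cell markers were well above background on the 4 arrays, with a summed level of 318 to 402 times the 75th percentile. Of other cell types, 0 of 4 T cell, 1 of 5 myeloid, 0 of 3 erythroid, 0 of 2 fibroblast and 1 of 3 epithelial markers were, with summed levels of 0.0612 to 0.0946, 0.17 to 0.22, 0.0355 to 0.0737, 0.0398 to 0.171 and 0.763 to 0.963.

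Few remodeller subunits lay past 1.5-fold, and smaller differences were common in Arp8 KO, where 43 of 74 probes (58.1%) were past 2 technical SDs, against 65.5% of all probes well above background on the 4 arrays. CHD3, an ATPase of the NuRD family, was the 1 gene past 2-fold against WT, and only in Arp8 KO, where its log2 difference was -1.07 and 7.71% of all probes tested were past 2-fold. SMARCA4, ARID2, PBRM1, SMARCA5 and CHD2 each had 1 probe past 1.5-fold in Arp8 KO or on the OE array. With CHD3, 4 of 74 probes were past it in Arp8 KO, beside 21.3% of all probes tested. On the OE array 3 were, beside 13.6%. In Arp5 KO no member was past 1.5-fold, beside 8.84% of all probes tested. The sequences just upstream of the start sites are given first for SMARCA4, CHD2 and CHD3, which are the genes past 1.5-fold in Arp8 KO that the RefSeq table holds. ARID2, also past 1.5-fold there, has no entry, and PBRM1 and SMARCA5, past it on the OE array alone, are not printed.

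These are the 250 bases before the annotated start, from RefSeq on build GRCh38.p14 and the + strand, at chr19:10960780-10961029 for SMARCA4, chr15:92900074-92900323 for CHD2 and chr17:7888539-7888788 for CHD3. Capitals mark matches to the binding site of NRF1, a regulator of housekeeping genes, searched on both strands as GCGCA, then any base, then GCGC. The CHD3 match reads so on the opposite strand.
SMARCA4: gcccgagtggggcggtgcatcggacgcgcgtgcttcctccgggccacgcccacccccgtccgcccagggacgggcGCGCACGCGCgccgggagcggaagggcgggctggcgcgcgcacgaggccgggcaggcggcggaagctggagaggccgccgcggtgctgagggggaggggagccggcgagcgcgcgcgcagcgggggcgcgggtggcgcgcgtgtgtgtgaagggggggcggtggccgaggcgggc
CHD2: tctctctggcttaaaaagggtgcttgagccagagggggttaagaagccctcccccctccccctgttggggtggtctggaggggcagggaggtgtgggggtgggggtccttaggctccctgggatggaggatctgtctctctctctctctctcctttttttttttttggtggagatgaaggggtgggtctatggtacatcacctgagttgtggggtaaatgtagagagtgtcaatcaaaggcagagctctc
CHD3: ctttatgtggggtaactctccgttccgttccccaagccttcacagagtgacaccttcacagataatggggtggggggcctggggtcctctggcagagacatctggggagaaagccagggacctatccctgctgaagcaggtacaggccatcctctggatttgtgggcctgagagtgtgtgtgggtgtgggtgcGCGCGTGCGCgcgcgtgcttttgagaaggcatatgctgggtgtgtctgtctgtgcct
The NRF1 site stood once before SMARCA4, which was higher in Arp8 KO, and once before CHD3, which was lower, and did not stand in the CHD2 window.

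Promoters of 36 of the 46 genes were in the table. SMARCC1, SMARCC2, ARID2, BAZ1A, BPTF, CHD7, TRRAP, ACTL6A, VPS72 and ATRX had no entry. On both strands, the NRF1 site was found before 7 of the 36 genes (CHD1, CHD3, MBD3, RBBP7, SMARCA4, SRCAP and YEATS4), which is 19.4%, against 5.53% of 27305 promoters of the same length. The core of the antioxidant response element, TGACNNNGC, which NRF2 and BACH1 bind, was found before 3 (CHD1, EP400 and RBBP4), which is 8.33% against 11%. The YY1 site GCCATNTT was found before 0 of the 36, against 3.91% of all promoters. YY1 is a zinc finger protein that works with INO80. The median GC content was 65.4% in the 36 promoters and 58% in all, and its part in these shares was not tested. None of the 3 motifs contains another, and a match is a run of letters, not evidence of binding.

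In Arp5 KO, 0 of the 74 probes were past 2-fold against WT, beside 3.7% of all probes tested, and 0 were past 1.5-fold, beside 8.84%. The differences ran from -0.37 for a PBRM1 probe to 0.50 for a SMARCA4 probe, with a median of 0.02 against 0.004 over all probes. Of the 74, 60 (81.1%) lay within 2 technical SDs of WT, while 51.9% of all probes did. Of the probes well above background on all 4 arrays, 55.8% did. The other shares over all probes counted those well above background on WT or Arp5 KO. Among those well above background on both, as all members were, 1.59% were past 2-fold and 5.64% past 1.5-fold.

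In Arp8 KO, 1 of the 74 probes was past 2-fold, beside 7.71% of all probes tested, and 4 were past 1.5-fold, beside 21.3%. Of the probes that stood well above background on WT as well as Arp8 KO, these thresholds were passed by 5.39% and 17.9%. The differences ran from -1.07 to 0.82 with a median of 0.09, against 0.026 over all probes. With 1 mean per gene the median was 0.014 over 44 genes, against 0.021 over 11163 genes. More probes stood apart from WT by over 2 technical SDs than in Arp5 KO, 27 higher and 16 lower. Within lay 31 (41.9%), against 32.3% of all probes and 34.5% of those well above background on all 4 arrays.

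On the OE array, 0 of the 74 probes were past 2-fold, beside 5.11% of all probes tested, and 3 were past 1.5-fold, beside 13.6%. With the probe required to stand above background on WT and on this array, these shares were 2.79% and 10.3%. The differences ran from -0.77 to 0.75, with a median of 0.02 against 0 over all probes. Within 2 technical SDs were 36 probes (48.6%), against 37.9% of all and 40.3% of those well above background on all 4 arrays. The 3 comparisons share the WT array, so a deviation of that array enters each of them.

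**Figure D1:**
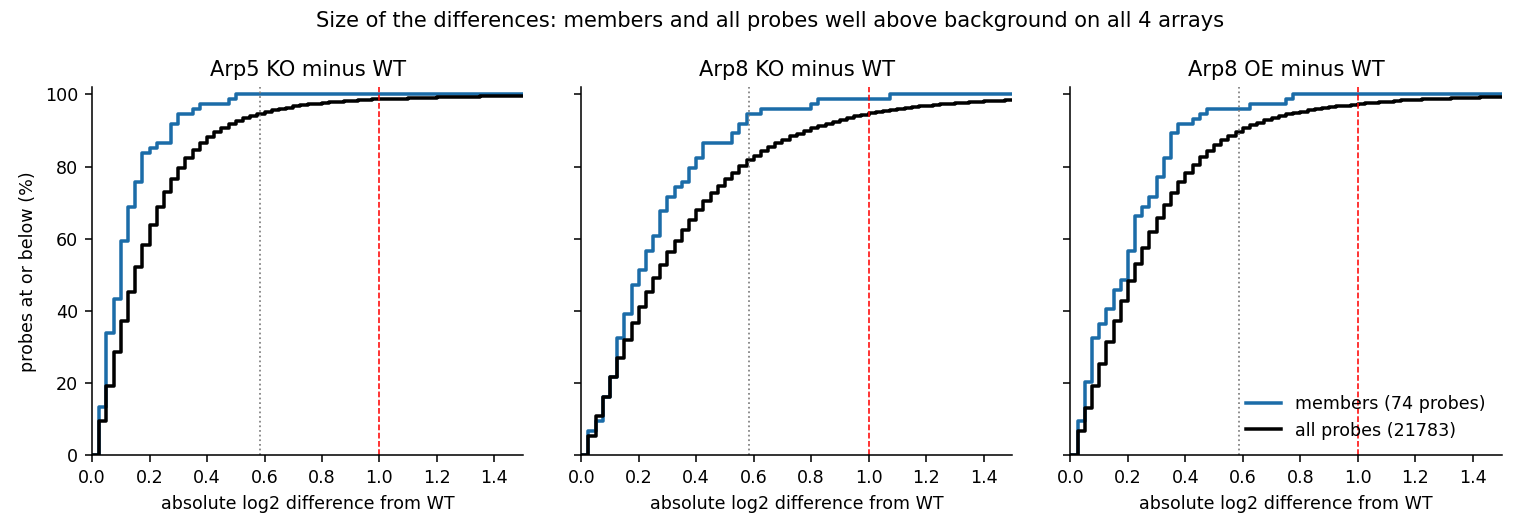
Share of probes (vertical axis, percent) whose absolute log2 difference from WT was at or below the value on the horizontal axis, for the 74 member probes (blue) and all 21783 probes well above background on all 4 arrays (black), in the 3 comparisons (Arp8 OE is the OE array). Dotted and dashed lines stand at 1.5-fold and 2-fold, and the member curve is above the other at both lines in each panel.

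Over the 4 arrays, the highest and lowest level of a member probe differed by 0.332 at the median, against 0.42 for the 21783 probes well above background on all of them. The difference was under 0.25 for 22 member probes (29.7%) and for 20.8% of all. The smallest were 0.04 for BRD9, a bromodomain subunit of a SWI/SNF form without the larger ARID proteins, 0.07 for SMARCB1, a core SWI/SNF subunit, and 0.08 for CHD1, an ATPase that travels with RNA polymerase. The largest were 1.07 for CHD3 and 1.07 for the PBRM1 probe A_23_P365874. Member probes were brighter than the 21783 probes, with a median level of 0.666 against -0.365. The part of brightness in these ranges, and in the shares within 2 technical SDs, was not tested.

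The ATPases of SWI/SNF are SMARCA2 (BRM) and SMARCA4 (BRG1), of which a complex holds 1. In the order WT, Arp5 KO, Arp8 KO and the OE array, used for all levels from here on, SMARCA4 had levels of 4.39, 4.89, 5.21 and 5.14 by probe A_23_P39040. Its difference was the highest of the member probes in all 3 comparisons, by 0.50, 0.82 (1.77-fold) and 0.75 (1.68-fold). The other SMARCA4 probes differed less. By A_23_P39034 the levels were 5.91, 5.93, 6.27 and 6.19, and by A_24_P212851 they were 1.26, 1.19, 1.43 and 1.31. All 3 were higher in Arp8 KO than in WT by more than 2 technical SDs, with a mean of 0.45 and an SD of 0.34 between probes, while in Arp5 KO they did not share a direction.

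SMARCA2 had levels of -1.84, -1.89, -2.11 and -1.95 by A_23_P252764, and of -0.40, -0.51, -0.45 and -0.43 by A_23_P60354. Both were lower than WT on each of the other arrays, and 1 of these 6 differences, -0.27 in Arp8 KO, was larger than 2 technical SDs.

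ARID2 and PBRM1 are found together in PBAF, the SWI/SNF form with several bromodomains that read acetylated histones. ARID2, with 1 probe, had levels of -0.86, -0.39, -0.07 and -0.60. WT was the lowest of the 4 arrays, and the differences were 0.47 in Arp5 KO, 0.79 (1.73-fold) in Arp8 KO and 0.26 on the OE array. PBRM1 had 3 probes. By A_23_P365874 its levels were -1.50, -1.86, -1.20 and -2.26, by A_23_P218863 -2.85, -2.85, -2.44 and -3.05, and by A_24_P362850 -1.54, -1.44, -1.16 and -1.51. All 3 probes were highest in Arp8 KO, by 0.30 to 0.41 above WT. On the OE array they disagreed, with differences of -0.77 (1.71-fold lower), -0.20 and 0.04, and with normexp background correction none was past 1.5-fold.

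The plot of levels by array shows every probe of the 6 genes with a difference past 1.5-fold.

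**Figure D2:**
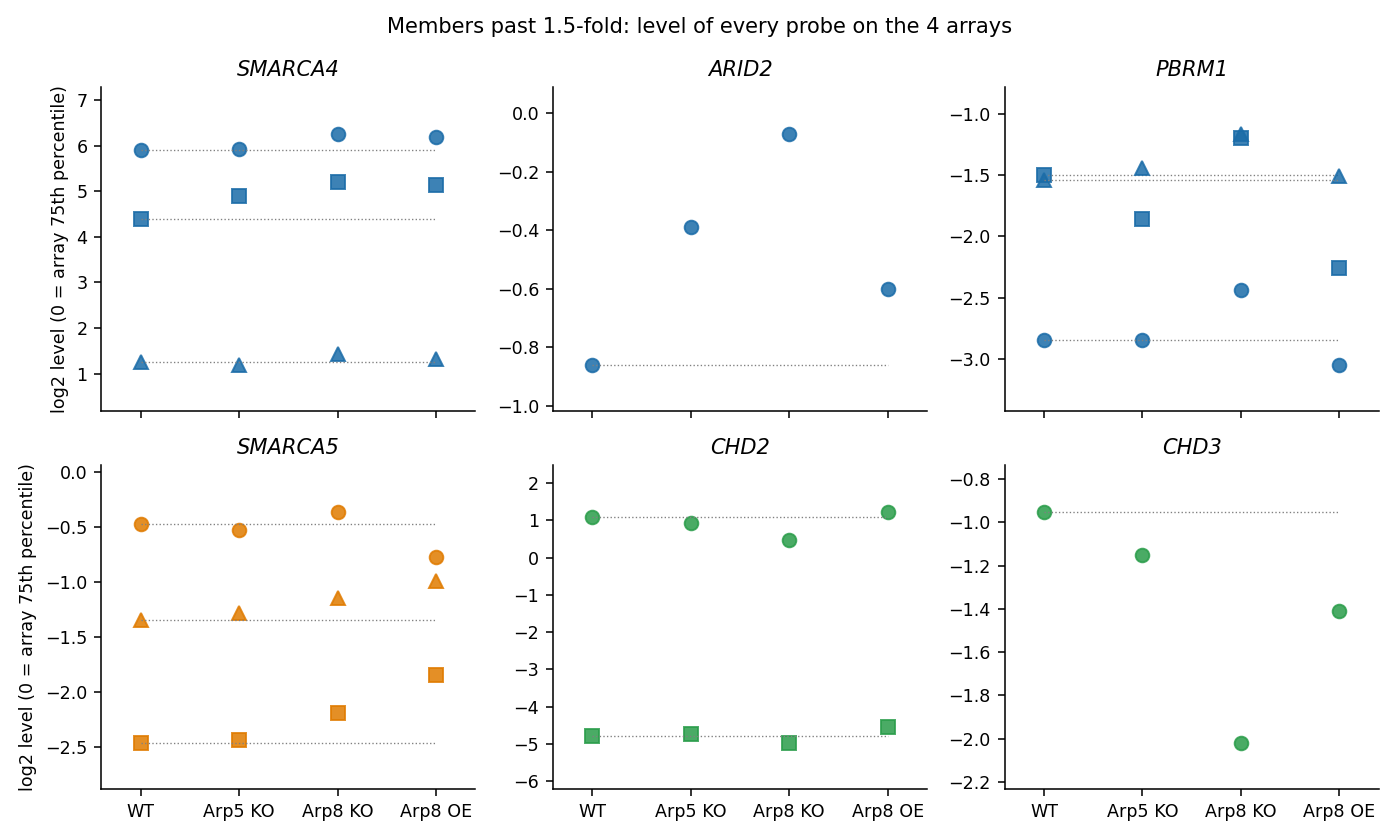
Log2 level over the array's 75th percentile (vertical axis, scaled for each gene) on each array (WT, Arp5 KO, Arp8 KO and, for the OE array, Arp8 OE) for the 6 genes with a probe past 1.5-fold against WT. Each symbol shape is 1 probe, the dotted line is that probe's WT level, heights of different probes are not comparable, and CHD3 is lowest in Arp8 KO, at -2.02.

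The other SWI/SNF subunits gave smaller differences. SMARCC1 and SMARCC2, the paired scaffold subunits, went in opposite directions on the OE array: both SMARCC1 probes were at -0.21, and the 3 SMARCC2 probes were at 0.21, 0.35 and 0.42. In the knockouts the SMARCC1 and SMARCC2 probes lay between -0.16 and 0.15. SMARCD2, 1 of 3 alternative accessory subunits, was 0.52 above WT in Arp8 KO and 0.14 and 0.22 above it in Arp5 KO and on the OE array. SMARCD1 was higher in Arp8 KO by 0.14 and 0.25, and SMARCD3 was at -0.28, -0.17 and 0.07. Where 3 differences follow a gene, they are those of Arp5 KO, Arp8 KO and the OE array. SMARCE1, a DNA-binding subunit, was higher in Arp8 KO by 0.12 and 0.36.

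ARID1A and ARID1B, the alternative large subunits that define the BAF form, lay between -0.27 and 0.33 on all arrays. Each of the 3 ARID1A probes had an adjacent spot bright on 1 array alone (over 2-fold brighter than on the 3 others), 2 of them on WT and 1 on the OE array, and the part of these spots was not tested. BRD7, a PBAF bromodomain subunit, was at -0.10, 0.06 and -0.29. The median over the 28 SWI/SNF probes was 0.006 in Arp5 KO, 0.111 in Arp8 KO and 0.07 on the OE array. With 1 mean per gene it was 0.023, 0.063 and 0.072 over 15 genes. Above WT were 15 of 28 (53.6%), 19 (67.9%) and 19 (67.9%), in the same order. By over 2 technical SDs, 3 (10.7%), 12 (42.9%) and 11 (39.3%) were higher. Of all probes well above background on the 4 arrays, 51.3%, 53.2% and 50.6% were above WT. By over 2 technical SDs, 22.8%, 35% and 30.6% of them were.

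ISWI complexes pair an ATPase, SMARCA5 (SNF2H) or SMARCA1 (SNF2L), with a large partner. The SMARCA1 probe, with levels of -6.96, -7.03, -7.06 and -6.77, was the 1 member probe not well above background, and no difference is given for it. SMARCA5 had levels of -0.47, -0.53, -0.36 and -0.77 by A_23_P256716, of -2.46, -2.43, -2.19 and -1.84 by A_32_P213678, and of -1.34, -1.28, -1.14 and -0.99 by A_32_P93187. On the OE array the probes gave -0.30, 0.62 (1.54-fold) and 0.35, with an SD of 0.47 between them, the largest of the 20 genes with several probes. The second was under 1.5-fold with normexp or scaling to the median. In Arp5 KO they lay within 0.06 of WT, and in Arp8 KO all were higher, by 0.10 to 0.27.

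BAZ1A (ACF1), the SMARCA5 partner in the ACF complex, was printed at 10 positions. Its mean level with the SD over 10 spots was 1.54 ± 0.06 in Arp8 KO, 1.24 ± 0.07 in Arp5 KO, 0.98 ± 0.06 in WT and 0.93 ± 0.08 on the OE array. The spots ran from 1.45 to 1.69 in Arp8 KO, 1.12 to 1.35 in Arp5 KO, 0.89 to 1.09 in WT and 0.81 to 1.13 on the OE array. How many other probes printed more than once separate to this degree was not counted. The difference from WT was 0.26 with an SD of 0.05 over spots in Arp5 KO, 0.56 with an SD of 0.03 in Arp8 KO and -0.05 with an SD of 0.05 on the OE array. Spots adjacent to these were bright on 1 array alone at 1 position on WT, 1 on Arp8 KO and 2 on the OE array. The 10 spots repeat 1 RNA sample on 1 array.

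The other ISWI partners were BAZ1B, BAZ2A and BPTF. BAZ1B (WSTF) lay within 0.10 of WT on each array. BAZ2A (TIP5), which silences ribosomal genes, was higher by 0.03, 0.35 and 0.28. BPTF, the histone-reading subunit of NURF, gave -0.57 and 0.08 by its 2 probes in Arp8 KO, an SD of 0.46, and the second probe had an adjacent bright spot on that array. Over 8 ISWI probes the median was 0.032, 0.153 and 0.099.

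CHD3 is an alternative ATPase of NuRD beside CHD4. Its levels were -0.95, -1.15, -2.02 and -1.41. WT was the highest of the 4 arrays. CHD3 was 2.10-fold lower in Arp8 KO, a log2 difference of -1.07, and the differences in Arp5 KO and on the OE array were -0.20 and -0.46. With background correction by normexp the Arp8 KO difference was -0.864, under 2-fold. CHD3 had 1 probe, so no other probe bears on it. CHD4 had levels of 3.39, 3.25, 3.54 and 3.33, and was 0.15 above WT in Arp8 KO.

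CHD2, which acts with histone H3.3 at active genes, had levels of 1.09, 0.93, 0.48 and 1.23 by A_24_P264664 and of -4.77, -4.73, -4.97 and -4.55 by A_24_P85317. Both probes were lowest in Arp8 KO and highest on the OE array. Against WT they were at -0.62 (1.53-fold lower) and -0.20 in Arp8 KO. The second probe was dim: the lowest levels of probes well above background were -5.01, -5.06, -5.17 and -4.81 on these arrays.

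CHD7, an ATPase that acts at enhancers and is mutated in CHARGE syndrome, had all probes on 1 side of WT, past 2 technical SDs, both in Arp8 KO and on the OE array. Its levels were 1.65, 1.74, 2.05 and 1.97 by A_24_P289383, 4.44, 4.59, 4.78 and 4.74 by A_24_P58381, and 0.77, 0.94, 1.31 and 1.21 by A_32_P150012. By all 3 probes the order was WT, Arp5 KO, the OE array and Arp8 KO from lowest to highest, and the gap between the last 2 was 0.10 or less, within 2 technical SDs. The mean difference over probes was 0.14 with an SD of 0.04 in Arp5 KO, 0.43 with an SD of 0.10 in Arp8 KO and 0.35 with an SD of 0.07 on the OE array.

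CHD1 had levels of -0.36, -0.44, -0.36 and -0.43. CHD8, a regulator of Wnt target genes, had levels of -0.75, -0.91, -0.63 and -0.79 by A_23_P140241 and of 1.59, 1.54, 1.71 and 1.55 by A_24_P361167. Neither gene differed from WT by more than 0.16 on any array.

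Of the NuRD subunits without ATPase activity, MTA2 was 0.51 above WT in Arp8 KO, and 0.12 and 0.19 above it in Arp5 KO and on the OE array. The MTA proteins hold the deacetylases of NuRD. MTA1 was higher by 0.10 to 0.27 in Arp5 KO and lay between -0.21 and 0.11 on the other arrays. MTA3 was at 0.08, -0.08 and 0.29. RBBP4 and RBBP7 are histone chaperones used by many complexes. The 4 RBBP4 probes gave -0.24 to 0.30 in Arp8 KO, and RBBP7 was at -0.10, -0.12 and -0.31. Over the 20 CHD and NuRD probes the median was 0.084, 0.057 and 0.052. With 1 mean per gene, the Arp5 KO median turned to -0.06 over 11 genes.

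**Figure D3:**
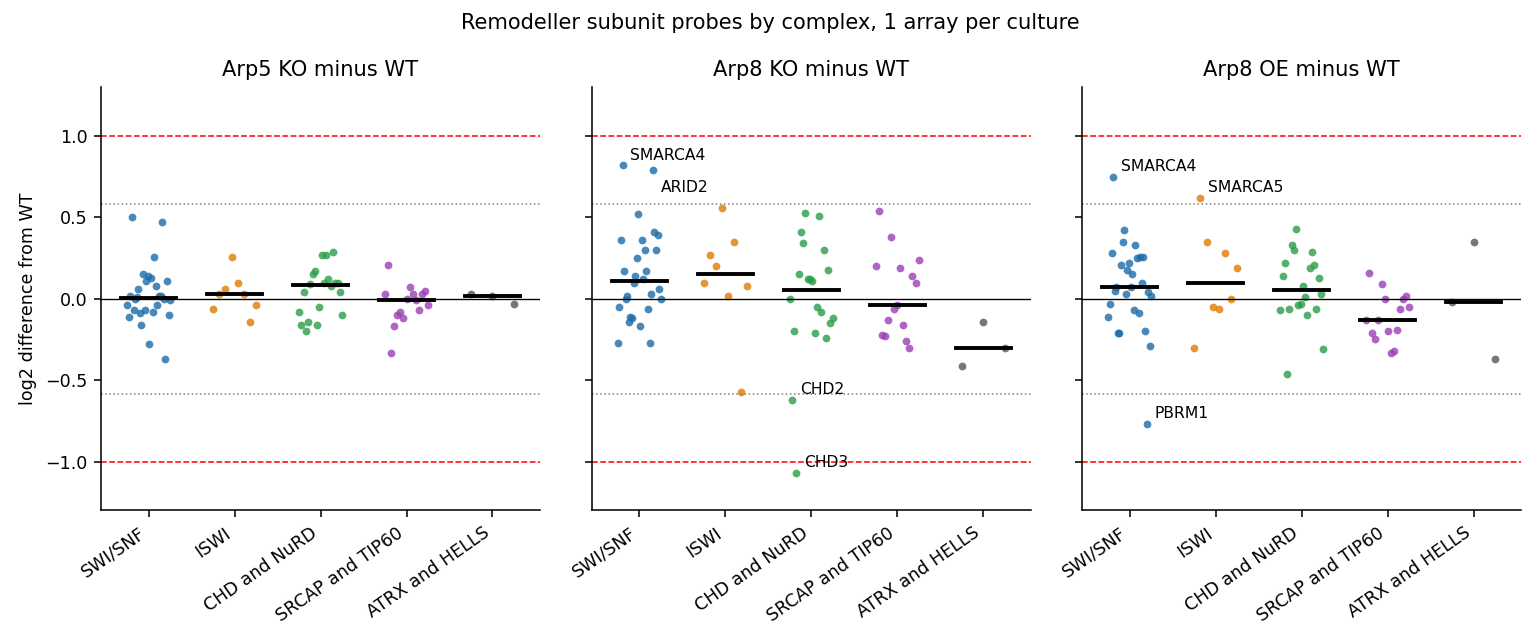
Log2 difference from WT (vertical axis) of each member probe, grouped by complex, with a panel for each comparison, of which Arp8 OE is the OE array. Each point is 1 probe, black bars are medians, dotted and dashed lines stand at 1.5-fold and 2-fold, and genes past 1.5-fold are named, with CHD3 alone past the 2-fold line.

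SRCAP and EP400 are the ATPases of the complexes that place H2A.Z. SRCAP had levels of -1.59, -1.56, -1.39 and -1.72, with differences of 0.03, 0.20 and -0.13. EP400, the ATPase of the TIP60 complex, had levels of -2.27, -2.06, -1.73 and -2.12 by A_23_P253158, of -0.11, -0.44, -0.32 and -0.32 by A_23_P421465, and of -3.57, -3.74, -3.81 and -3.82 by A_24_P298939. The first EP400 probe was above WT on every other array, by up to 0.54 in Arp8 KO, and the other probes were below it on every array, by 0.17 to 0.33.

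KAT5 (TIP60), the acetyltransferase of that complex, was at -0.10, -0.13 and -0.13, within 2 technical SDs. TRRAP, its large scaffold, was 0.38 above WT in Arp8 KO and at -0.08 and 0.09 in Arp5 KO and on the OE array. YEATS4, a reader of acylated histones, was at -0.30 in Arp8 KO. ACTR6, the actin-related protein of SRCAP, DMAP1, which SRCAP and TIP60 share, and VPS72, which carries H2A.Z, lay between -0.12 and 0.24 on all arrays, and the VPS72 probe had an adjacent spot bright on the OE array alone.

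The subunits shared with INO80 differed from WT by at most 0.33. RUVBL1 and RUVBL2 are the paired AAA+ ATPases of INO80, SRCAP and TIP60. RUVBL1 had levels of 0.61, 0.68, 0.80 and 0.29 by A_24_P148811 and of -1.76, -1.73, -1.92 and -2.08 by A_32_P30693. Both RUVBL1 probes were lowest on the OE array, at -0.33 and -0.32 against WT, while in Arp8 KO they gave 0.19 and -0.16. The first of them had an adjacent spot bright on the Arp8 KO array alone. RUVBL2 had levels of 3.96, 3.94, 3.70 and 3.76, with differences of -0.26 in Arp8 KO and -0.19 on the OE array. ACTL6A (BAF53A, or Arp4), an actin-related protein of INO80, SWI/SNF and TIP60, had levels of 3.75, 3.75, 3.71 and 3.56. In Arp5 KO the RUVBL1, RUVBL2 and ACTL6A probes lay within 0.07 of WT. The median over the 15 SRCAP and TIP60 probes, which include these 3 genes, was -0.013, -0.039 and -0.128.

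ATRX places histone H3.3 at repeats, and HELLS (LSH) is needed for DNA methylation of repeats. ATRX had levels of -1.77, -1.74, -2.18 and -1.79 by A_23_P136874 and of -0.07, -0.04, -0.21 and 0.28 by A_24_P348660. Both probes were lowest in Arp8 KO, by -0.41 and -0.14 against WT. HELLS had levels of 0.58, 0.55, 0.28 and 0.22, with differences of -0.03, -0.30 and -0.37. The HELLS probe had 2 adjacent spots bright on WT alone and 2 on the OE array alone, and the first ATRX probe had 1 on Arp8 KO. The median of the 3 probes was 0.023, -0.301 and -0.024. Without these probes, 1 ATRX probe is left, at -0.14 in Arp8 KO and 0.35 on the OE array, where the direction is turned.

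Probes of the same gene were set side by side for the 20 genes with several. All probes of a gene lay on 1 side of WT and past 2 technical SDs for 0 genes in Arp5 KO, beside 21.5% of the 4049 genes with several probes well above background on all 4 arrays. In Arp8 KO they did so for 4 genes, beside 35.5%, of which SMARCA4, PBRM1 and CHD7 were higher and CHD2 was lower. CHD2 is counted with its dim probe A_24_P85317. On the OE array they did for 4 as well, beside 30.7%, with SMARCC2 and CHD7 higher and SMARCC1 and RUVBL1 lower. The median SD between probes of a gene was 0.09 in Arp5 KO, 0.16 in Arp8 KO and 0.11 on the OE array.

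**Figure D4:**
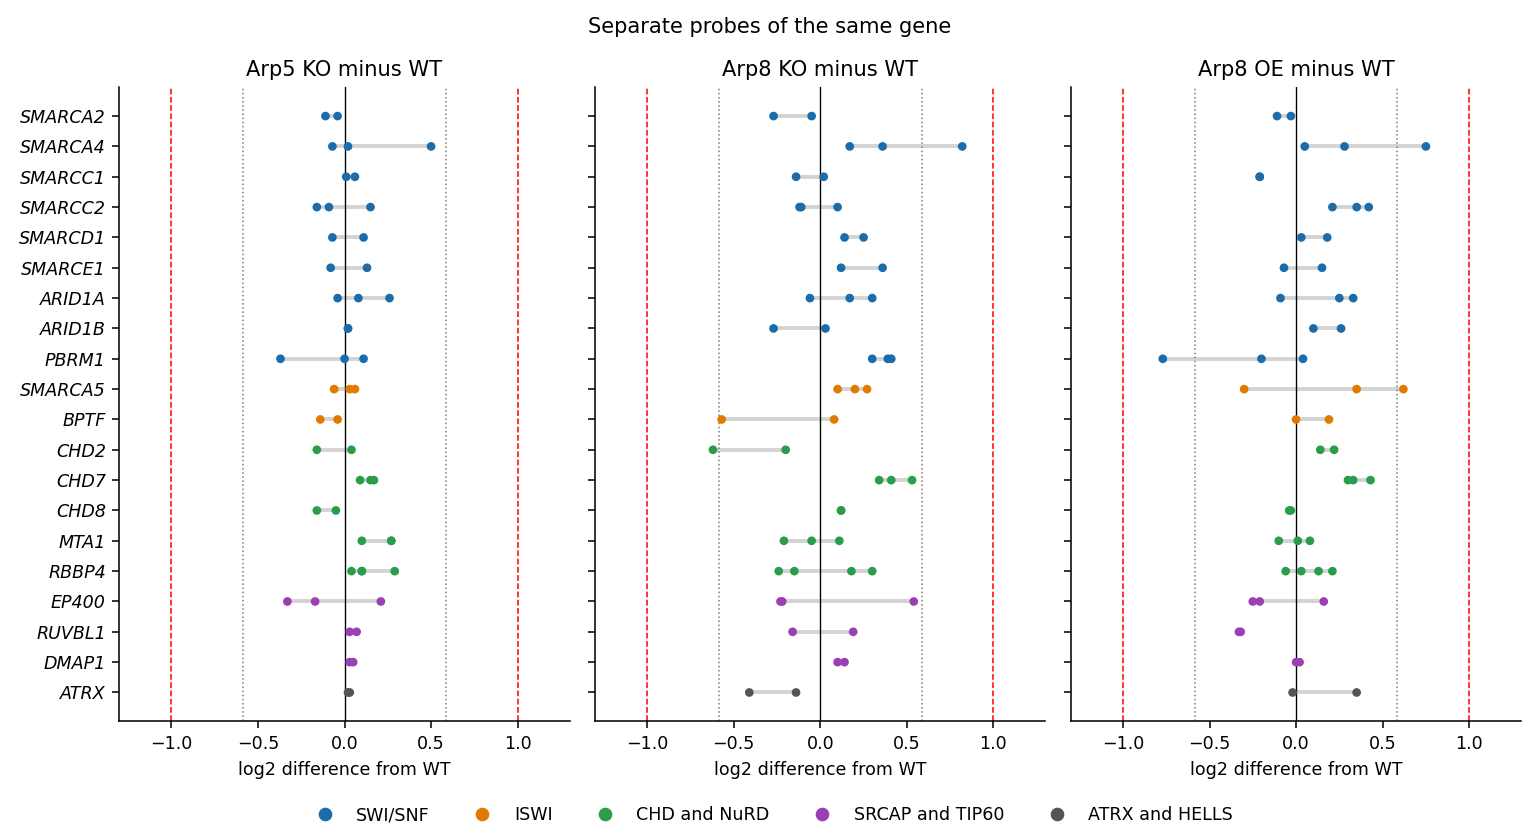
Log2 difference from WT (horizontal axis) of each probe of the 20 genes with several probes, with a panel for each comparison. Each point is 1 probe, coloured by complex, the grey bar joins the probes of a gene, the panel Arp8 OE is the OE array, and the SD between probes was largest for SMARCA4 in Arp5 KO, BPTF in Arp8 KO and SMARCA5 on the OE array, at 0.31, 0.46 and 0.47.

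The knockouts were also compared with each other and Arp8 KO with the OE array, and here too genotype and heme cannot be told apart. In Arp8 KO against Arp5 KO, 0 of the 74 probes were past 2-fold, beside 5.71% of all probes tested, and 2 were past 1.5-fold, beside 14.7%. Of the probes that passed the background filter in both knockouts, 3.48% and 11.5% did so. The 2 members were CHD3, at -0.87, and PBRM1 A_23_P365874, higher by 0.67. Against the OE array, 1 probe was past 2-fold in Arp8 KO, beside 5.43%, and 5 were past 1.5-fold, beside 16%, or 3.47% and 13.3% of the probes that passed the filter on both. PBRM1 was higher by 1.07 and 0.61 by 2 of its probes and BAZ1A by 0.61, and CHD2 and CHD3 were at -0.76 and -0.61.

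A further 49 genes outside the list were counted in the same way. They included the DPF and BCL7 families of SWI/SNF, CHD6 and CHD9, HDAC1 and HDAC2 of NuRD and the MORF proteins of TIP60. Also among them were other SNF2 proteins and partners, such as RAD54L, ERCC6, HLTF and DAXX, which are not subunits of SWI/SNF, ISWI, NuRD, SRCAP or TIP60. Of the 49, 47 had a probe, 72 probes in all, and 18 of the 72 were for these SNF2 proteins and partners. Past 1.5-fold were 1 higher and 0 lower of 68 measured in Arp5 KO, beside 8.84% of all probes tested, 3 higher and 2 lower of 67 in Arp8 KO, beside 21.3%, and 1 higher and 1 lower of 67 on the OE array, beside 13.6%. BAZ2B, an ISWI partner with a bromodomain, was the 1 gene past 2-fold, in Arp8 KO and on the OE array, with levels of -3.65, -2.95, -2.40 and -2.50 and differences of 0.70, 1.26 and 1.15. The INO80 complex had 17 probes. Past 2-fold were 2 of 15 measured in Arp5 KO, 1 of 16 in Arp8 KO and 0 of 15 on the OE array, beside 3.7%, 7.71% and 5.11% of all probes tested. In Arp5 KO these were ACTR5, at -4.27, and INO80B, at 1.99, beside whose probe 2 spots were bright in Arp5 KO only. INO80, the ATPase of the complex, had levels of 2.06, 2.76, 3.06 and 2.23 by A_23_P106522 and of -0.94, -0.16, 0.06 and -0.88 by A_24_P39454. Both probes were highest in Arp8 KO, at 1.994-fold and 2.001-fold over WT, so only the second was counted past 2-fold.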

How the data were processed

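Per the file headers, the authors obtained the deposited spot intensity on a linear scale with Agilent Feature Extraction 10.10.1.1. Its processed signal is background-subtracted and not normalized between arrays, and the headers name hg19 as the design's build. The deposited series matrix holds the same intensity times 1 factor per array and served as another source. All value columns could be tied to their samples, and groups were taken from the genotype label. On the 4 arrays, the 75th percentile of signal ran from 647.4 to 739.6, 55.83 to 57.4% of probes were well above background, and precision is limited by the number of arrays.

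The processed signal was divided by each array's 75th percentile over spots other than controls and put on the log2 scale. Outlier spots were left out and spots of a probe were averaged. A probe entered a comparison if at least 50% of its spots were well above background on 1 of the 2 arrays compared, and a dim value was raised to the lowest value of the array's probes well above background. Accessions were matched to symbols through the RefSeq table of GRCh38.p14, which named 27210 probes. With 1 array per group, no test was run, and a probe was called when it differed by at least 2-fold, with 1.5-fold as a second threshold. Complexes, lists and members were chosen with earlier results of these data known, and the promoter motifs after the values were seen. Values on all 4 arrays are given for the ATPases, the subunits shared with INO80 and every member past 1.5-fold against WT, and other members by differences. The authors' sources used here give no probe sequences.

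Results were recomputed with the series matrix, normexp with an offset of 50, cyclic loess, quantile normalization, scaling to the median, other filters on dim probes, means over a gene's probes, other thresholds, the array labelled Arp8 OE as the reference, and without probes beside spots bright on 1 array (centres within 20 pixels). Normexp used the median spot signal, which the files hold. Python 3.11.15, pandas 2.3.3, R 4.3.3 and limma 3.58.1 were used, and the counting was tested on simulated data.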

Additional observations from a re-analysis of the deposited data

How the results depend on the processing

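Of 254 recomputed counts, medians and targeted-gene differences, 237 moved by less than the technical SD or stayed within 1.5 times the count. Another 17 moved more, and 0 called values changed sign. The 237 include settings that could hardly move a value. The series matrix differs by 1 factor per array, which scaling removes, and the filter on both arrays dropped no measured member. The count past 2-fold in Arp8 KO became 0 with normexp and at 4-fold, and 4 at 1.5-fold, and that on the OE array became 3 at 1.5-fold. CHD3 in Arp8 KO was at -0.864 with normexp and at -0.611 against the OE array, and between -1.041 and -1.079 under the other settings. Past 1.5-fold on the OE array there were 2 probes when scaled to the median, without SMARCA5, and 1 with normexp, SMARCA4. Of 924 recomputed differences of named probes, 117 moved by more than the technical SD, 50 of them against the OE array. Normexp also brought ACTR5 in Arp5 KO to -2.793, ACTR8 A_24_P131697 on the OE array to -0.144 and the ATRX and HELLS median in Arp5 KO to -0.078. With the OE array as the reference, the medians were -0.384 for ATRX and HELLS, -0.023 for ISWI and 0.14 for SRCAP and TIP60 in Arp8 KO, and -0.024 for CHD and NuRD and -0.186 for ISWI in Arp5 KO. Without probes beside a bright spot, 8 member probes dropped out, which left 1 probe for ATRX and HELLS, at -0.144 in Arp8 KO and 0.35 on the OE array, and brought ISWI on the OE array to 0.005. Without a filter or floor that ISWI median, then with SMARCA1, was 0.189, and means over a gene's probes brought CHD and NuRD in Arp5 KO to -0.06. Means over a gene's probes also brought the median over all members to -0.001 in Arp5 KO, 0.014 in Arp8 KO and 0.003 on the OE array. Where no value shows it, the cause was not tested. Without filter or floor, the median of all probes was 0.114 on the OE array. No paired analysis was possible because each group had 1 array. SMARCA1 alone among the members was not well above background, and the CHD2 probe A_24_P85317 passed near the lowest level of such probes.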
